A study of Mus musculus with 27 samples.

Results

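MHC class II antigen presentation was followed in the livers of mice on 4 diets through 9 genes: H2-Aa, H2-Ab1, H2-Eb1, H2-DMa, H2-DMb1, H2-Oa, H2-Ob, Cd74 and Ciita. The genes were chosen by name, and each was represented by its array probe set of highest mean value. A probe set of its own was found for 8 of the 9, out of 18820 genes with one on the array, and these 8 were among the 13603 genes that passed the intensity minimum of the study (an intensity above 20 on at least 5 arrays). H2-DMb1 shares its only probe set with its near-identical neighbour H2-DMb2 and was given no value.

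RNA came from whole livers of 27 male C57BL/6J mice, 1 Affymetrix Mouse Gene 1.1 ST array per mouse, all of them mock-treated by gavage between 2 fasts of 4 and 6 h before sacrifice. The diets started at 9 weeks of age and lasted until 12 months. Mice on C (n = 7) ate the control diet AIN-93W freely, mice on CR (n = 6) received 30% less energy than the controls, mice on MF (n = 7) ate a version of the diet with 25% of energy from fat, and mice on INT (n = 7) changed weekly between MF and a 40% energy restriction and were taken in an MF week. Values are log2 intensities after robust multiarray averaging (RMA).

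MHC class II molecules display peptides from endocytosed proteins to CD4+ T cells. H2-Aa and H2-Ab1 encode the α and β chains of I-A, and H2-Eb1 the β chain of I-E. Cd74, the invariant chain, fills the groove of new molecules and guides them to endosomes, where H2-DM (H2-DMa with H2-DMb1) exchanges its last fragment for peptide and H2-DO (H2-Oa with H2-Ob), found mainly in B cells and thymus, holds H2-DM back. Ciita is the coactivator that class II promoters require. In liver, dendritic cells, B cells, Kupffer cells and sinusoidal endothelium carry class II, and healthy hepatocytes carry little. C57BL/6 mice have a defective H2-Ea gene and therefore make no I-E at the cell surface, although H2-Eb1 is transcribed. On these arrays H2-Ea had means of 2.68 to 2.74 log2 units in the 4 diets, under the minimum of 4.32, as the strain label would have it, while H2-Eb1 was above the minimum on 27 of 27 arrays.

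Class II genes share a promoter arrangement in which an X box, bound by RFX proteins, lies upstream of a Y box, bound by NF-Y, and Ciita docks on both. Windows of 250 bases before to 50 bases after a start site were at hand for 6 of the 9 genes (RefSeq, GRCm38.p6), with 2 windows for H2-DMa. The 250 bases before the start were searched on both strands for an X box-like motif (AG, any 2 bases, AC, any 2 bases, ATG) and for the Y box core GATTGG, letters chosen with these windows in view. The following stretches, written 5′ to 3′ on the strand of the gene and ending 26 bases before the start, are shown because H2-Eb1 and H2-Ob are the genes on which the diet comparison turns and the others are their neighbours on chromosome 17. Capitals mark matches.
H2-Eb1, chr17:34305752-34305841, plus strand: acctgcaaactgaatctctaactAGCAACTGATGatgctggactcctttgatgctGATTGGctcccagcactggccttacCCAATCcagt
H2-Ob, chr17:34238790-34238879, plus strand: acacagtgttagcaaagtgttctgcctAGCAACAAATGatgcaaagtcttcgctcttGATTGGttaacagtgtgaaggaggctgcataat
H2-DMb1, chr17:34153076-34153165, plus strand: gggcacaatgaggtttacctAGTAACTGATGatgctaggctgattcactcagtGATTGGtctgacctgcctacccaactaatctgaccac
H2-Oa, chr17:34092228-34092353, plus strand: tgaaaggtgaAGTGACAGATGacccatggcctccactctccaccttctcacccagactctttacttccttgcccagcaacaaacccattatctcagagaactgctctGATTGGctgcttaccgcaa
H2-Aa, chr17:34287849-34287938, minus strand: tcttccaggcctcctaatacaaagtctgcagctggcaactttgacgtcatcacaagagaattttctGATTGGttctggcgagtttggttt

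An X box-like match lay upstream of a Y box core on the gene's strand in H2-Eb1, H2-Ob, H2-DMb1 and H2-Oa, an order found in 0.07% of all 32851 windows (23 windows). The windows of these genes are among the 23, and the letters were chosen with them in view, so this share is no test of the genes. The X box-like match and the Y box core were 21 bases apart in H2-Eb1, 19 in H2-Ob and 22 in H2-DMb1, and 86 in H2-Oa. The printed H2-Oa stretch also holds agcaacaaacc, nearer to its Y box core, which was not counted because it does not end in ATG. The gap in H2-Oa therefore depends on the letters searched for, and no difference in spacing is drawn from it. H2-Aa had the Y box core without these X box letters, as did 1 of the 2 windows of H2-DMa, and the other H2-DMa window had neither. By themselves, the X box-like letters occurred in 2.6% and the Y box core in 14.6% of all windows. The capitals CCAATC in H2-Eb1 are a second Y box core on the opposite strand. The matches describe the sequence and were not tested for binding.

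Between CR- and C-fed mice, all 8 measured class II genes had lower mean values in CR, with a median log2 difference of -0.43 against 0.004 over all genes tested. Here and in the other pairs of diets, the signs of the 8 genes are not independent of each other. H2-Aa, H2-Ab1, H2-Eb1, Cd74 and H2-DMa varied together between livers (r from 0.87 to 0.99, described below). Of the 8, H2-Eb1 and H2-Ob passed the test (limma, adjusted over 13603 genes at 0.05), both lower in CR. Over all genes, 17.5% were called in this comparison, and 9.05% of all genes were called as lower in CR, against which 2 of 8 is a small count. In a whole liver, fewer class II-positive cells and less class II RNA per cell cannot be told apart.

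H2-Eb1 had values from 8.66 to 10.28 (median 9.03) log2 units in C and from 7.87 to 8.69 (median 8.45) in CR. In MF it ranged from 8.29 to 10.10 (median 8.91) and in INT from 8.05 to 9.26 (median 8.59). Of the CR livers, 5 of 6 lay below every C liver, and only the highest CR liver entered the range of C, whereas CR lay within the wide range of INT except for 1 liver. As intensities, the means were 616.6 ± 294.4 (SD, n = 7) in C and 341.7 ± 62.5 (SD, n = 6) in CR. The difference of CR from C was -0.77 log2 units (standard error 0.27, limma, adjusted p = 0.0471), from MF -0.55 (adjusted p = 0.156) and from INT -0.22 (adjusted p = 0.655).

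H2-Ob, the β chain of H2-DO, had values from 4.87 to 5.77 (median 5.21) in C, from 4.70 to 5.78 (median 5.07) in MF, from 4.95 to 5.21 (median 5.05) in INT and from 4.43 to 4.97 (median 4.81) in CR. The groups overlapped, with 4 of the 6 CR livers below every C liver and 5 of the 6 below every INT liver, and INT was tightly grouped for this gene. Its difference in CR was -0.44 from C (standard error 0.13, limma, adjusted p = 0.0211), -0.36 from MF (standard error 0.13, adjusted p = 0.0534) and -0.30 from INT (standard error 0.13, adjusted p = 0.141).

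Neither call held in every fit that left out 1 mouse. H2-Ob no longer passed when the lowest of its livers, CR replicate 2, was left out (limma, adjusted p = 0.0678), nor when the highest C liver, C replicate 5, was (adjusted p = 0.0551). H2-Eb1 stayed called in 12 of 27 fits that left out 1 mouse, with differences between -0.85 and -0.58. The mice whose removal ended its call were 4 of the C (replicates 1, 2, 5, 6), 5 of the CR (1, 2, 4, 5, 6), 4 of the MF (3, 5, 6, 7) and 2 of the INT livers (1, 6). The largest adjusted p of H2-Eb1 was 0.122, without CR replicate 2. Without 1 of these MF or INT livers its difference stayed at -0.77 and its adjusted p was at most 0.0533, so that this call lay close to the threshold. With both C replicate 5 and MF replicate 4 left out, neither gene was called against C (limma, adjusted p = 0.0566 for H2-Eb1 and 0.0569 for H2-Ob), and H2-Ob was called against MF (-0.37, adjusted p = 0.0362). The same call of H2-Ob against MF appeared when 1 of C replicates 2 or 5, MF replicates 1 or 2, or CR replicates 5 or 6 was left out (adjusted p from 0.0195, without MF replicate 2).

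The α and β chains of I-A followed H2-Eb1 without passing the test. H2-Aa ranged from 8.91 to 10.24 (median 9.21) in C, from 8.61 to 10.26 (median 9.01) in MF, from 8.11 to 9.85 (median 9.02) in INT and from 8.20 to 9.20 (median 8.66) in CR. H2-Ab1 ranged from 8.58 to 9.88 (median 9.03) in C, from 8.48 to 9.94 (median 8.89) in MF, from 7.90 to 9.72 (median 9.05) in INT and from 7.93 to 9.11 (median 8.44) in CR. The groups overlapped for both genes, and for H2-Aa 5 of 6 CR livers lay below every C liver. Against C, the differences of CR were -0.71 (standard error 0.28, limma, adjusted p = 0.0805) and -0.65 (standard error 0.28, adjusted p = 0.112).

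Of the genes that load the molecules, Cd74 ranged from 9.09 to 10.30 (median 9.44) in C, from 8.77 to 10.53 (median 9.25) in MF, from 8.45 to 9.88 (median 9.18) in INT and from 8.67 to 9.61 (median 9.07) in CR. Its mean was 9.09 in both INT (SD 0.49) and CR (SD 0.31), and its difference of CR from C was -0.42 (standard error 0.26, limma, adjusted p = 0.289). H2-DMa, the α chain of H2-DM, ranged from 6.74 to 7.86 (median 6.87) in C, from 6.44 to 8.11 (median 6.80) in MF, from 6.06 to 7.30 (median 6.67) in INT and from 6.25 to 6.89 (median 6.68) in CR. The groups overlapped throughout, and the highest values in C and MF each came from a single liver, followed by 7.17 in C and 7.31 in MF. Its difference of CR from C was -0.38 (standard error 0.22, adjusted p = 0.259).

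Ciita and H2-Oa, like H2-Ob, had values not far above the minimum or under it. Ciita ranged from 4.93 to 5.57 (median 5.08) in C, from 4.80 to 5.63 (median 4.94) in MF, from 4.74 to 5.41 (median 5.05) in INT and from 4.63 to 5.18 (median 4.81) in CR, with a difference of CR from C of -0.27 (standard error 0.14, limma, adjusted p = 0.176). H2-Oa exceeded the minimum of 4.32 on 7 of 27 arrays, of which 3 were of C, 1 of MF, 2 of INT and 1 of CR. It ranged from 4.13 to 5.02 (median 4.20) in C, from 3.84 to 4.50 (median 4.15) in MF, from 3.97 to 4.53 (median 4.26) in INT and from 3.84 to 4.40 (median 4.04) in CR. Its difference of CR from C was -0.30 (standard error 0.13, adjusted p = 0.111), and background limits the size of any difference of this gene.

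**Figure D1:**
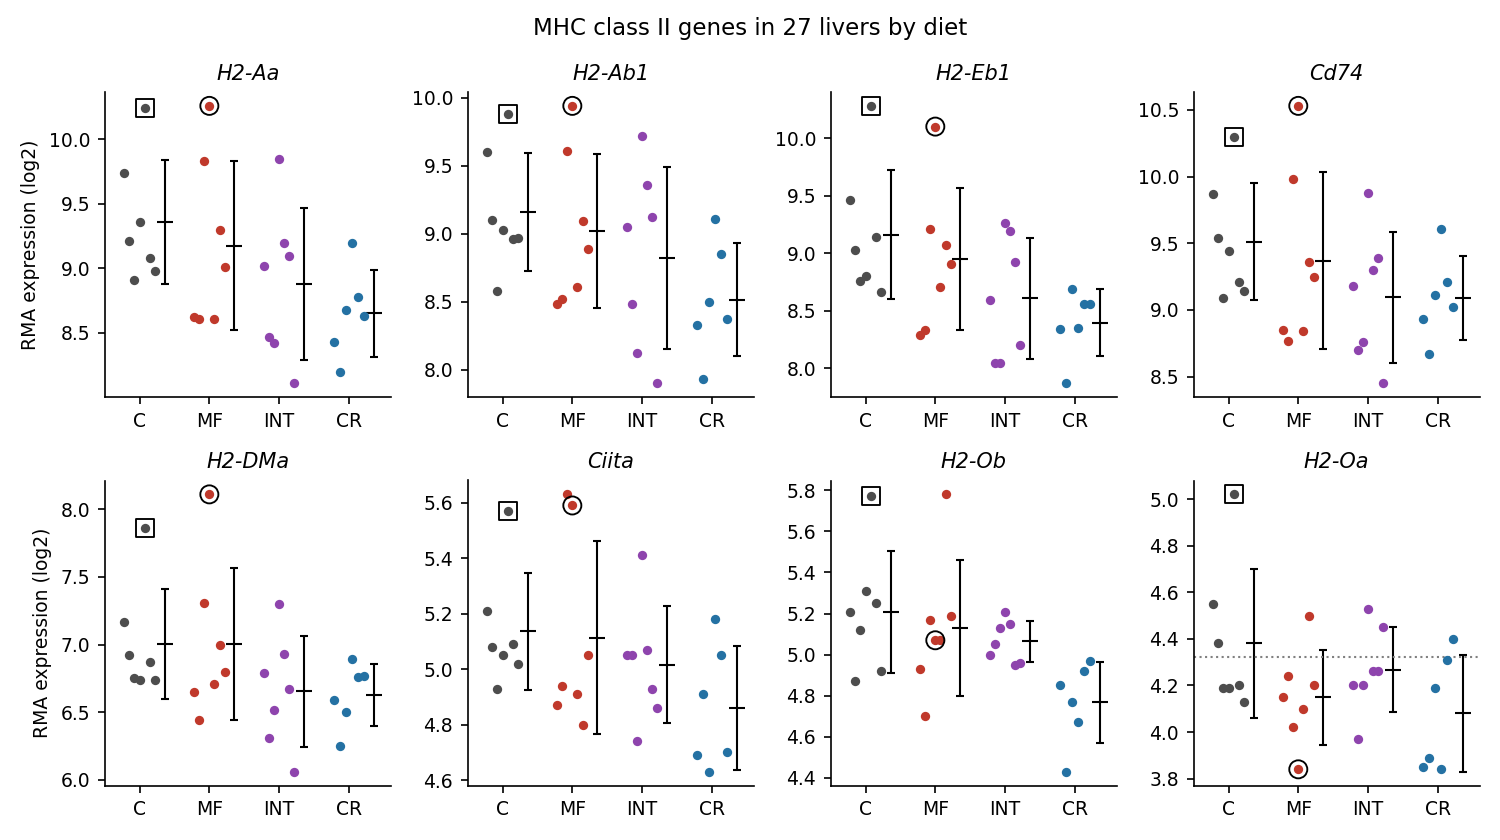
RMA log2 expression (y axis) of the 8 measured class II genes in each liver, by diet (x axis: C, MF and INT, n = 7, CR, n = 6). Points are livers, black bars are the mean ± SD, the square marks C replicate 5, the circle MF replicate 4, and the dotted line in the H2-Oa panel is the intensity minimum. The y axes do not start at 0 and differ between panels. In H2-Eb1, 5 of the 6 CR livers lie below every C liver.

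Against the other diets no class II gene was called. Between CR and MF, 0 of 8 were called, against 19.8% of all genes, with 8 of 8 differences below 0 and a median of -0.37 (2 genes, H2-Ob and H2-Eb1, at an unadjusted p under 0.05). Between CR and INT, 0 of 8 were called, against 15% of all genes, with a median of -0.20 (1 gene, H2-Ob, at an unadjusted p under 0.05). These comparisons share the CR livers, so their signs are not independent of each other. The median of CR with MF was -0.51 in replicates 1 to 4, -0.16 in replicates 5 to 7 and -0.27 without C replicate 5 and MF replicate 4. That of CR with INT was -0.245 in replicates 1 to 4 and -0.08 in replicates 5 to 7, where 5 of 8 were below 0. That of CR with C was -0.43 and -0.41 in the same sets, and -0.32 without those 2 livers.

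Among the 3 diets that were fed without continuous restriction, 0 of 8 class II genes were called in any pair, and the share of all genes called was also 0% between INT and C, 0% between INT and MF and 0% between MF and C. The INT livers lay below C with a median difference of -0.35 (8 of 8 below 0), H2-Eb1 at -0.55 (standard error 0.26, limma, adjusted p = 0.724) and H2-Aa at -0.48 (standard error 0.27, adjusted p = 0.769). At an unadjusted p under 0.05 this comparison had 1 of the 8, H2-Eb1, and INT with MF and MF with C had 0. The medians there were -0.24 (7 of 8 below 0) and -0.14 (8 of 8 below 0), and neither was stable. That of INT with MF was -0.08 without both high livers, and that of MF with C was 0.04 in replicates 1 to 4 and -0.36 in replicates 5 to 7. A test of any difference among the 4 diets called 0 of the 8, against 16.7% of all genes, with H2-Ob nearest (limma moderated F test, adjusted p = 0.0813). H2-Eb1 followed, with an adjusted p of 0.136, and these 2 were also the members at an unadjusted p under 0.05.

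**Figure D2:**
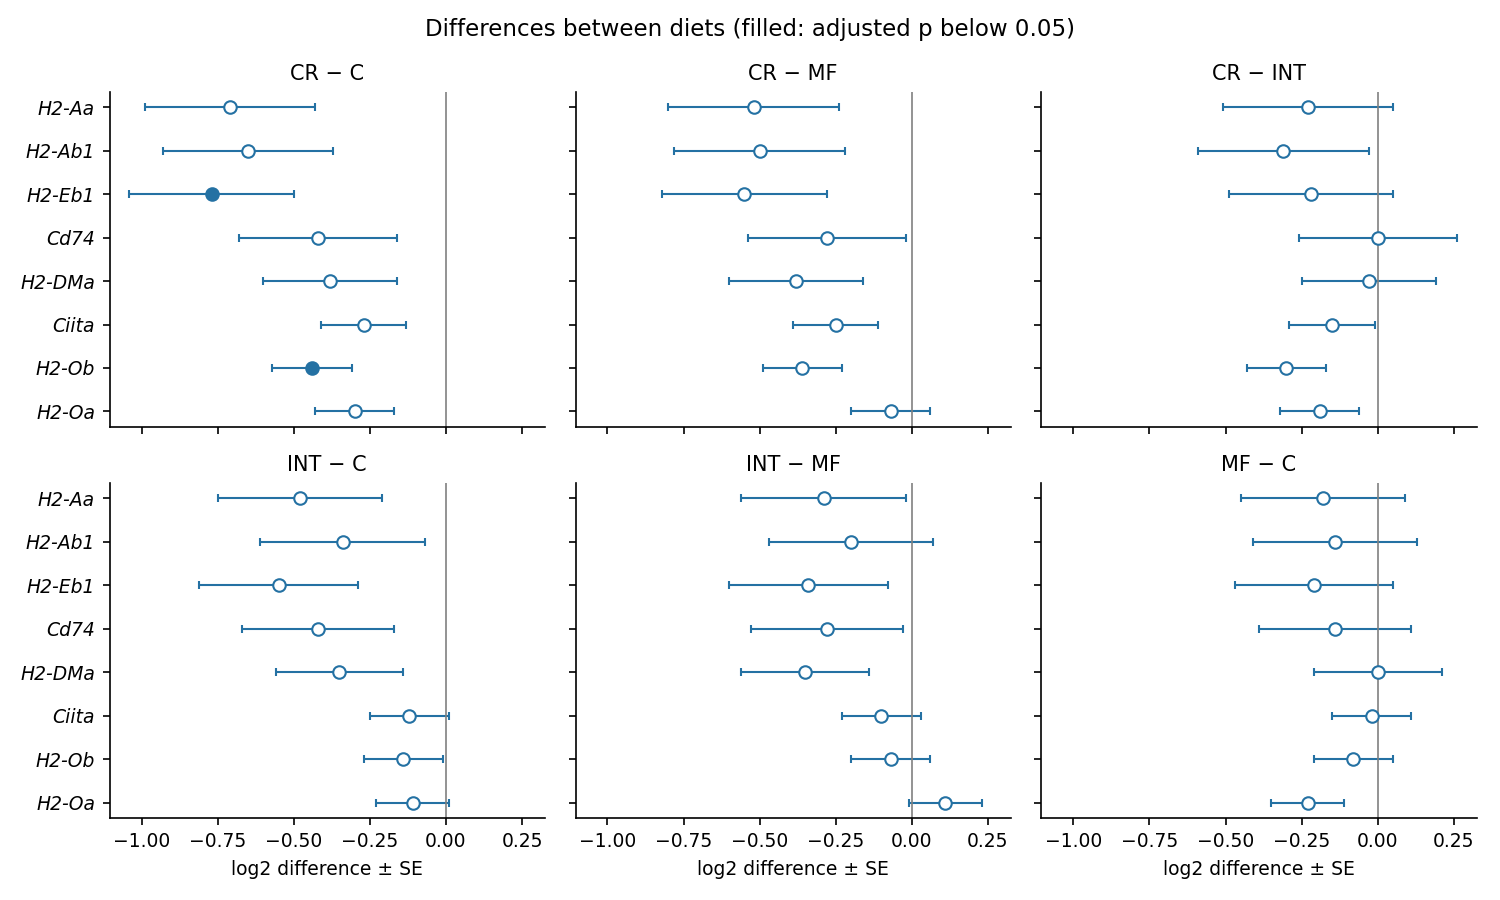
Log2 difference (x axis, ± standard error) of each class II gene in the 6 pairs of diets, with the first diet minus the second. Filled points passed limma at an adjusted p under 0.05, which are H2-Eb1 (-0.77) and H2-Ob (-0.44) between CR and C. All CR minus C values lie to the left of 0.

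Differences between livers on the same diet were larger than those between diets. The diet accounted for between 13.5% of the variance (Cd74) and 32.3% (H2-Ob) of the class II genes, with a median of 17.8% over all genes tested. Within diets, the SD was 0.54 log2 units for H2-Aa and H2-Ab1, 0.52 for H2-Eb1, 0.50 for Cd74 and 0.42 for H2-DMa, against a median of 0.16 over all genes. In MF, where H2-Aa and Cd74 each had an SD of 0.66, 99% of all genes tested varied less. The highest and lowest MF livers were 3.39-fold apart in Cd74 intensity, and the highest and lowest INT livers 3.53-fold in H2-Ab1. CR was the diet of smallest SD for H2-Aa (0.34), H2-Ab1 (0.42), H2-Eb1 (0.29), H2-DMa (0.23) and Cd74 (0.31). The SDs of C include C replicate 5, which was 0.84 (H2-Ab1) to 1.31 (H2-Eb1) above the mean of the other C livers. Without it, the C livers spanned less than the CR livers in each of these genes (H2-DMa, 6.74 to 7.17 against 6.25 to 6.89). By mean distance from the diet median, H2-Ab1 was also lower in C (0.296) than in CR (0.306), and the others were lowest in CR. H2-Ob went another way, with its smallest SD in INT (0.10), where only 22.8% of genes varied less. A test of the spread between diets (limma on the distance of each liver from the median of its diet) called 0 of 8, with 0 at an unadjusted p under 0.05, against 0.0221% of all genes (3 genes), and the lowest unadjusted p among the 8 was 0.421, for Cd74. On simulated data this test found 1 of 200 genes given a 4-fold larger SD in MF, and 84 of 200 given a 20-fold larger one. With 6 or 7 livers per diet it could hardly call differences of spread, and a count of 0 does not show that the spreads were alike.

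The same livers stood high or low in most class II genes. MF replicate 4 had the highest value of all 27 livers in H2-Aa (10.26), H2-Ab1 (9.94), H2-DMa (8.11) and Cd74 (10.53), and C replicate 5 the highest in H2-Eb1 (10.28) and the second highest in those 4. At the low end, INT replicate 7 was the lowest in H2-Aa (8.11), H2-Ab1 (7.90), H2-DMa (6.06) and Cd74 (8.45), each time followed by CR replicate 2. The 2 high livers differed in the H2-DO genes. C replicate 5 was also the highest in H2-Oa (5.02) and the second highest in H2-Ob (5.77), while MF replicate 4 was the lowest in H2-Oa (3.84) and 12th of 27 in H2-Ob (5.07). The highest H2-Ob value belonged to MF replicate 6 (5.78), whose H2-Aa value was 9.30.

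**Figure D3:**
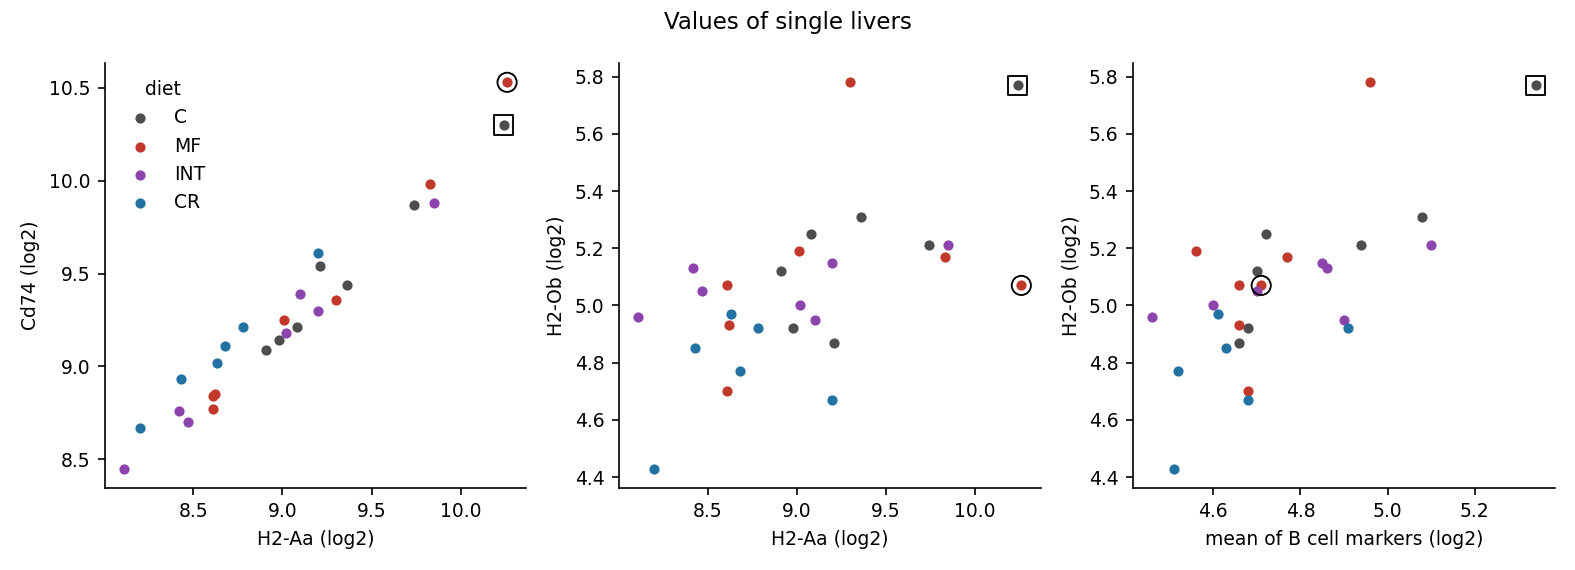
Log2 values of single livers, coloured by diet, for H2-Aa (x) against Cd74 (y), H2-Aa against H2-Ob, and the mean of 7 B cell markers (x) against H2-Ob (y). The square marks C replicate 5 and the circle MF replicate 4. H2-Aa and Cd74 lie along 1 line, and in the middle panel MF replicate 4 stands at the right end of H2-Aa (10.26) with an H2-Ob value of 5.07 in the middle of the livers.

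With the mean of each diet subtracted, the class II chains, Cd74 and H2-DMa varied together across the 27 livers. Pearson's r lay between 0.87 and 0.99 in the 10 pairs among H2-Aa, H2-Ab1, H2-Eb1, Cd74 and H2-DMa, and 10 of 10 passed a permutation test within diets, adjusted over the 28 pairs of members. H2-Aa with Cd74 had r = 0.99 (Spearman's rho 0.98, permutation test with 100000 resamples, adjusted p = 2.55e-05 and, for rho, 3.5e-05), r = 0.99 without the 2 livers farthest from the median of H2-Aa, and r = 0.99 within each of the 4 diets. The pairs were computed over livers, and so reflect both cell number and RNA per cell.

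Ciita followed the chains and Cd74 less tightly, with r from 0.66 (H2-Eb1) to 0.82 (H2-Aa, Cd74), and 4 of 4 passed. With H2-Eb1, r was 0.45 (adjusted p = 0.0569) without the 2 livers farthest from the median of H2-Eb1, which were C replicate 5 and MF replicate 4, so that its call rests on those 2 livers. Within diets, r was 0.97 in C, 0.75 in MF, 0.70 in INT and -0.29 in CR, and within the sets of replicates 1 to 4 and 5 to 7 it was 0.70 and 0.76.

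The H2-DO genes had lower correlations. H2-Ob had r from 0.38 to 0.53 with H2-Aa, H2-Ab1, H2-Eb1 and Cd74, of which 2 of 4 passed (H2-Aa, adjusted p = 0.0489, and H2-Eb1, adjusted p = 0.025). Without 2 livers the relation with H2-Aa was 0.41 (adjusted p = 0.071) and that with H2-Eb1 was 0.51 (adjusted p = 0.0084). H2-Oa had r from 0.20 to 0.41 with the same 4 genes, and 0 of 4 passed (unadjusted, H2-Eb1 alone reached a permutation p of 0.0494). Without the 2 livers farthest from the median of H2-Eb1, its relation with H2-Oa passed (r = 0.48, adjusted p = 0.0309). Within C, H2-Oa followed H2-Aa (r = 0.95, n = 7), where C replicate 5 is high in both, and within MF the sign was opposite (r = -0.50, n = 7), where MF replicate 4 is high in one and low in the other. H2-Oa and H2-Ob had r = 0.59 with each other (Spearman's rho 0.41, permutation test, adjusted p = 0.0078 and, for rho, 0.0642), but 0.42 (adjusted p = 0.0597) without the 2 livers farthest from the median of H2-Oa.

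The arrays fall into replicates 1 to 4 (16 arrays) and 5 to 7 (11 arrays), whose interquartile ranges were 3.63 and 3.72 log2 units. H2-Aa and Cd74 had r = 0.99 within both sets. The correlation of H2-Oa with H2-Ob was -0.07 within replicates 1 to 4 and 0.86 within replicates 5 to 7, so it did not hold in both. Of the 28 pairs, 18 passed in all, 17 without both high livers and 21 with the means of the array sets removed as well.

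**Figure D4:**
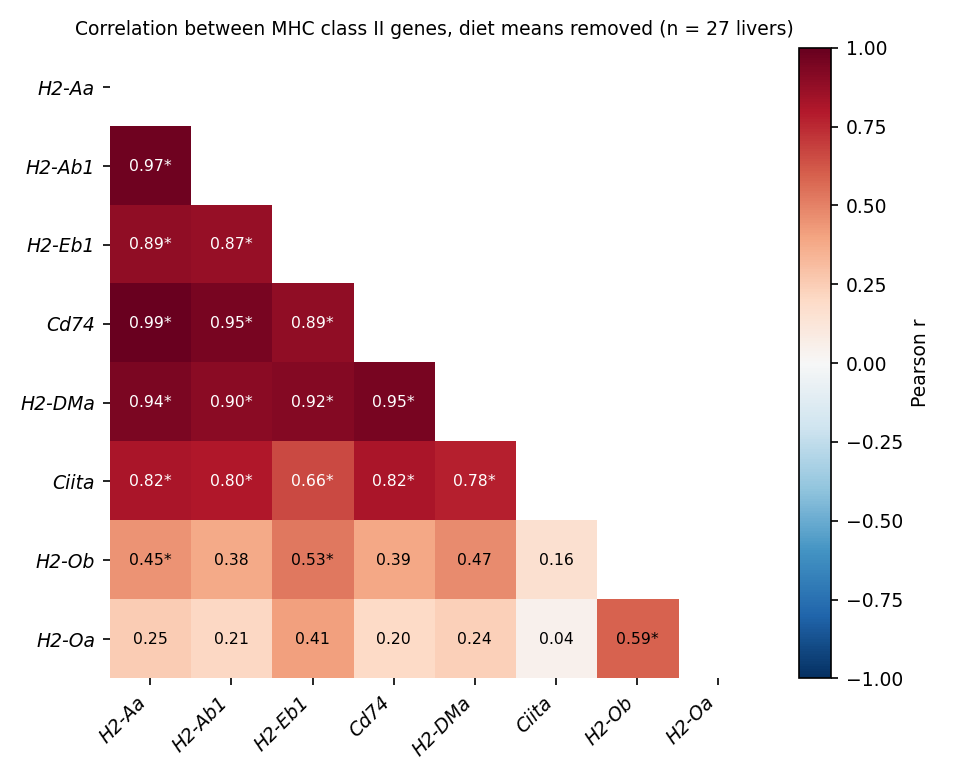
Pearson's r between the 8 class II genes over 27 livers, with the mean of each diet removed. Rows and columns are genes, colour and number give r, and a star marks an adjusted permutation p under 0.05. The upper block from H2-Aa to H2-DMa holds values of 0.87 and above, and the rows of H2-Ob and H2-Oa hold lower ones.

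Among all other genes past the minimum, Gbp2, an interferon-induced GTPase, and Cyp4f18, a P450 enzyme of leukocytes, had the profiles most like the mean standardised profile of H2-Aa, H2-Ab1, H2-Eb1 and Cd74. Their r was 0.907 and 0.894 with diet means removed and 0.871 and 0.911 on the log2 values as they stand. With diet means removed the next were Cd52, Stat4, Cd53, Nkg7, Rasgrp1, Akna, Pld4 and Ctss (r from 0.869 to 0.852), of which Cd52 and Cd53 encode leukocyte surface proteins and Ctss the protease cathepsin S, which trims the invariant chain. On the log2 values they were Lsp1, Akna, Il7r, Gm8995, Slamf7, Nkg7, Selplg and Cxcl9 (r from 0.856 to 0.806). All are Pearson correlations over 27 livers, chosen as the largest, with no test. In the diet-centred order, 36 other genes were more like this profile than Ciita (r = 0.798), 928 more than H2-Ob (r = 0.451) and 2452 more than H2-Oa (r = 0.272), while H2-DMa (r = 0.953) came before all of them.

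Markers of the cells that carry class II were measured in the same livers. Of 80 relations between a class II gene and the mean of a marker list, 51 passed a permutation test with diet means removed, adjusted over the 80. The share of all 13603 genes that would pass with the same lists was not computed. These counts, here and for each list, are therefore no result particular to class II genes. Dendritic cell markers (9 of 10 past the minimum, Clec10a under it) followed Cd74 and Ciita most closely, with r = 0.82 for both, and 6 of 8 class II genes passed. H2-Ob (r = 0.31) and H2-Oa (r = 0.19) did not pass with them. The B cell markers, of which Ms4a1, Cd79a, Cd79b, Pax5, Blk, Fcmr and Bank1 passed the minimum and Cr2 and Fcer2a did not, passed with 8 of 8 genes (r from 0.43 to 0.68). H2-Ob was the highest of these, with r = 0.68 (adjusted p = 6.77e-04), and 0.48 (adjusted p = 0.0261) without the 2 livers farthest from its median, while H2-Oa had r = 0.52, and 0.31 (adjusted p = 0.221) without the 2 farthest from its own. H2-Ob with the B cell markers had r = 0.63 within replicates 1 to 4 and 0.76 within replicates 5 to 7.

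NK cell markers passed with 7 of 8 genes (r up to 0.81). Among the 6 genes that passed with dendritic cell markers, H2-Aa (0.81 against 0.80) and H2-Ab1 (0.77 against 0.71) had higher r with NK cell markers. Without C replicate 5 and MF replicate 4 this held for H2-Eb1 (0.68 against 0.55), H2-DMa (0.78 against 0.59) and Cd74 (0.73 against 0.70) too. Ciita went the other way (0.45 against 0.73). Only 3 of the 8 NK cell markers were past the minimum, Nkg7, Gzmb and Il2rb. Ncr1, Klrb1c, Gzma, Eomes and Klrd1 were under it, so that this list mean rests on few genes. T cell markers passed with 6 of 8 (r up to 0.70), monocyte markers with 6 of 8 (r up to 0.79) and Kupffer cell markers with 6 of 8 (r up to 0.62). Sinusoidal endothelial markers passed with 5 of 8 (r up to 0.80, H2-Eb1), stellate cell markers with 1 of 8 (H2-Ob, r = 0.34) and cholangiocyte markers with 0 of 8 (r up to 0.39). Hepatocyte markers ran the other way, with r down to -0.56 and 6 of 8 passing. Without the 2 livers farthest from the median of the class II gene, 40 of the 80 passed, and without C replicate 5 and MF replicate 4, 34 passed. Leaving both out took the count of the hepatocyte list from 6 to 0 (r down to -0.39) and that of the sinusoidal endothelial list from 5 to 1, where H2-Eb1 still passed (r = 0.70, adjusted p = 0.00773). It took the B cell list from 8 to 5 (H2-Ob, r = 0.56, adjusted p = 0.00773), the Kupffer cell list from 6 to 4, the monocyte list from 6 to 5 and the stellate cell list from 1 to 0. The counts for dendritic cells (6), NK cells (7), T cells (6) and cholangiocytes (0) did not change. With T cell markers the genes did change. Ciita no longer passed (permutation test, adjusted p = 0.019 before and 0.0724 after), and H2-Oa did (0.175 before and 0.0319 after).

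**Figure D5:**
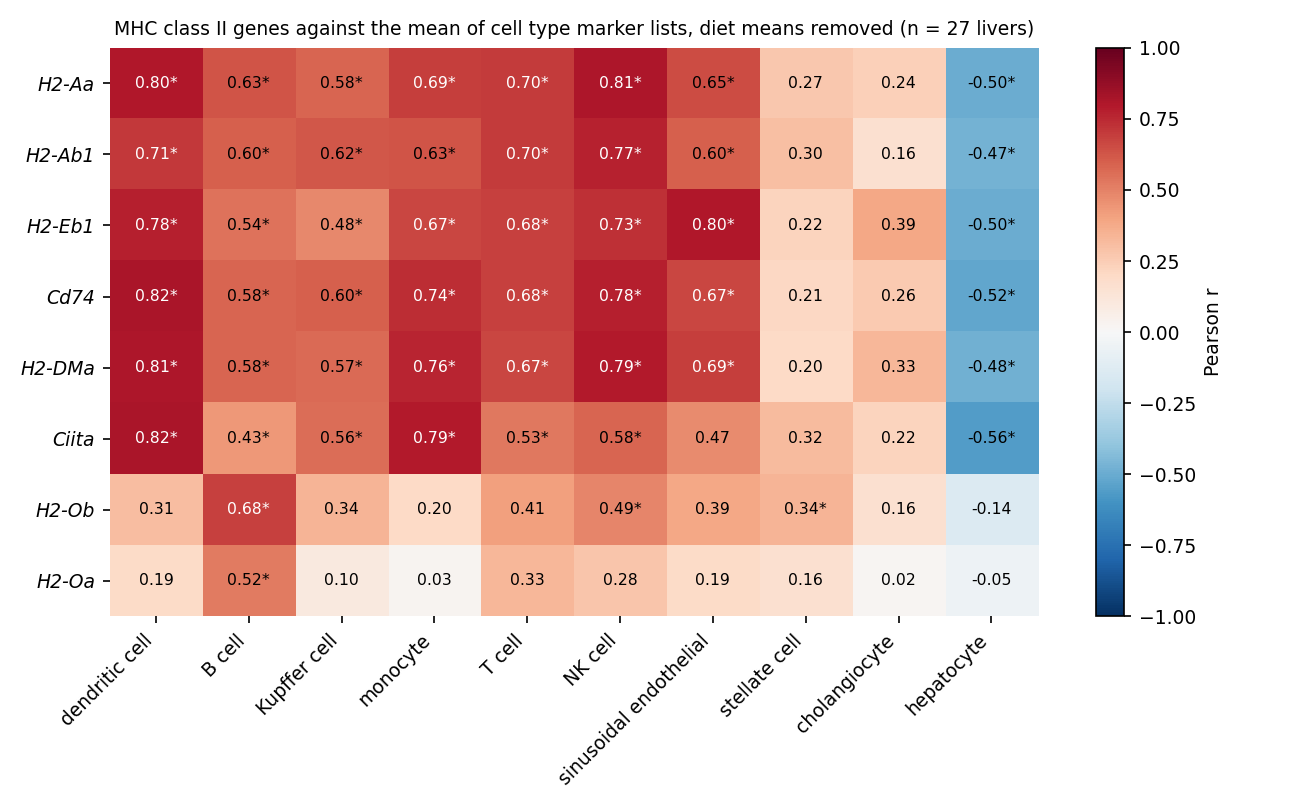
Pearson's r of each class II gene (rows) with the mean log2 value of each cell type marker list (columns) over 27 livers, diet means removed. A star marks an adjusted permutation p under 0.05 over the 80 relations. H2-Ob has its highest value in the B cell column (0.68), and H2-Aa, H2-Ab1, H2-Eb1, H2-DMa, Cd74 and Ciita have higher values in the dendritic cell column than in that one. The highest values of H2-Aa (0.81) and H2-Ab1 (0.77) are in the NK cell column, and that of H2-Eb1 (0.80) is in the sinusoidal endothelial column.

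The 2 high livers held different markers. The B cell mean was 5.34 log2 units in C replicate 5, the highest of all livers, and 4.71 in MF replicate 4, whereas the dendritic cell mean was 5.84 and 5.86, and the monocyte mean 6.24 and 6.47. In the diets, the B cell mean ranged from 4.66 to 5.34 in C and from 4.51 to 4.91 in CR, and the dendritic cell mean from 5.19 to 5.84 in C and from 5.23 to 5.30 in CR. Between CR and C, 1 of 7 B cell markers was lower, Fcmr, an Fc receptor for IgM (-0.34, limma, adjusted p = 0.0227, and 0.0595 without both high livers), with a median of -0.30 over the list, and 0 of 9 dendritic cell markers were called, with a median of -0.12.

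The mean of the Kupffer cell markers was highest in CR, the diet in which the class II genes had their lowest means (for Cd74 equal to INT). It ranged from 8.26 to 8.80 in CR, from 7.98 to 8.45 in C, from 7.77 to 8.45 in MF and from 7.72 to 8.23 in INT, so that every CR liver lay above every INT liver. Of 10 markers, 2 were higher in CR than in C, the Kupffer lectin Clec4f (0.48, limma, adjusted p = 6.29e-04) and the growth factor receptor Csf1r (0.43, adjusted p = 0.0142), 3 were higher than in MF and 6 higher than in INT, with 0 lower in each. Without both high livers these counts were 3, 6 and 8. Over all genes, 8.46% were called higher in CR than in C, 8.57% than in MF and 6.62% than in INT. The shares called lower in CR were 9.05%, 11.2% and 8.37%. Beside these shares, 1 or 2 called genes in a short list, here and in the pathway lists below, is a small count. For T cells, 1 of 8 markers was lower in CR than in C, the coreceptor Cd4 (-0.63, adjusted p = 0.00265). Between CR and C, 0 of 7 monocyte, 0 of 3 NK cell and 0 of 8 stellate cell markers were called, and 2 of 8 sinusoidal endothelial, 2 of 4 cholangiocyte and 2 of 8 hepatocyte markers were higher in CR. Without both high livers the sinusoidal endothelial count was also 2, and the cholangiocyte and hepatocyte counts were 1 each. The part of any of these cell types in the class II differences was not tested.

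Of the factors that drive class II transcription and of interferon gamma signalling, 13 of 17 listed genes were tested, and between CR and C 2 were higher and 2 lower. Ifngr1 and Ifngr2, the 2 chains of the interferon gamma receptor, moved in opposite directions, Ifngr1 with 0.28 (standard error 0.06, limma, adjusted p = 0.0023) and Ifngr2 with -0.50 (standard error 0.11, adjusted p = 0.00141). Both differences were also called against MF (0.25 and -0.59) and against INT (0.32 and -0.53). The Y box-binding subunits split too, with Nfyb at 0.41 (adjusted p = 0.0297) and Nfya at -0.29 (adjusted p = 0.0479). Neither was called against C without both high livers (adjusted p = 0.0597 and 0.0672), and Nfya was called against MF (-0.42, adjusted p = 0.00393). The median of the list was 0.05, with 5 of 13 below 0.

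Of 8 tested genes of antigen processing and class II turnover, 1 was higher and 1 lower in CR than in C, 1 and 1 against MF and 2 and 1 against INT. The lysosomal protease Ctsl was higher in all 3 (0.27 against C, adjusted p = 0.00503, 0.29 against MF and 0.38 against INT), and Ctsd was higher against INT (0.23, adjusted p = 0.0383). Marchf8, a ubiquitin ligase that removes class II from the cell surface, was lower in all 3 (-0.24 against C, adjusted p = 0.0146, -0.34 against MF and -0.29 against INT). Genes that give T cells a second signal or restrain them had 0 of 5 called in each comparison. Between CR and C, Cd274, which restrains T cells, was at -0.43 (limma, adjusted p = 0.0988) and was alone at an unadjusted p under 0.05. Cd86, which supplies the second signal, was at -0.06 (adjusted p = 0.835). Of the other class II loci only H2-Eb2 was tested, with -0.32 between CR and C (standard error 0.12, adjusted p = 0.0697).

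In the class I pathway, which presents peptides from the cytosol, 4 of 14 tested genes were called between CR and C, of which 3 had lower and 1 a higher mean with CR. Tap1, a subunit of the peptide transporter, was lower in CR throughout, with differences of -0.78 against C (standard error 0.15, limma, adjusted p = 3.59e-04), -0.73 against MF and -0.76 against INT. Psmb9, a subunit of the immunoproteasome, was also lower in all 3, with -0.80 against C (standard error 0.18, adjusted p = 0.00204), -0.64 against MF and -0.56 against INT. Tap2 was lower against C (-0.30, adjusted p = 0.0254) and MF (-0.31), and Tapbp, which links the transporter to class I molecules, was higher in all 3 (0.28 against C, adjusted p = 0.006, 0.26 against MF and 0.34 against INT). The median of the list was -0.04, with 10 of 14 below 0. Tap1, Tap2 and Psmb9 lie within the class II region of the MHC. These class I counts were the same without both high livers, and none of the listed pathway genes was called among INT, MF and C.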

How the data were processed

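Liver RNA (100 ng per mouse) of 27 mice was hybridised to 1 array each. The authors normalised the arrays by RMA, and the deposited table holds log2 values for 35556 probe sets, of which 21218 name 1 gene, 1881 several and 12457 none. Array medians lay between 5.21 and 5.27, and arrays correlated with r of 0.982 to 0.992. Array values give no read depth, and the number of arrays limits the precision.

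Each gene took its probe set of highest mean (1386 of 18820 genes had more than 1), and 13603 genes above an intensity of 20 on at least 5 arrays were tested. limma 3.58.1 (R 4.3.3; lmFit, eBayes) was fitted to all 27 arrays, with 6 pairs of diets, a moderated F test and a test of spread, adjusted by Benjamini-Hochberg at 0.05 over all genes. Correlations, with diet means removed, used 100000 permutations within diets (NumPy 2.4.6, SciPy 1.17.1, Python 3.11.15). Scripts were tested on simulated data.

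The members and lists were chosen with earlier results of these data known. All members are named, then pathway genes that were called (for lists with none, those of smallest p), markers called between CR and C, chosen after their values were seen, and the 10 most similar genes on each scale. Labels do not say whether mice shared litters or batches. Replicate numbers were checked for pairing: same-numbered mice had a mean correlation of 0.07 over 39 pairs (-0.249 to 0.304), and were not taken as pairs.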

Additional observations from a re-analysis of the deposited data

Results flagged for a closer look

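H2-DMa in C replicate 5 (7.86 log2 units) stood apart from the other C livers, the nearest of which was at 7.17. The gap was 0.620 of the range of the 7 livers, above Dixon's 95% critical value for a group of this size. It was the only such value in 32 groups of livers examined, where chance gives about 1 in 20.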

How the results depend on the processing

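Of the 8 class II genes, 2 were called between CR and C. The count was 1 with no intensity minimum, cyclic loess, trend and robust variances, the array set as a block, or replicates 1 to 4 only. It was 0 with replicates 5 to 7 only, or with both high livers (C replicate 5 and MF replicate 4) left out, a setting chosen after seeing the data. By a one-way test with Tukey's post-test it was also 0. The p-values of that test, already adjusted over the pairs of diets, were adjusted again over all genes. The methods name this test but do not state its use across all array genes. The count was 3 with array weights (H2-Aa added, adjusted p = 0.041, limma), and 4 with only the 2 groups compared. With the replicate number as a block it was 4 (H2-Aa, adjusted p = 0.0242, H2-Ab1, 0.0441, H2-Eb1, 0.0214, and H2-Ob, 0.00817, limma). With that block 8 of the 8 were at an unadjusted p under 0.05, against 5 in the main fit. The numbers share no stated source, and 11 of 27 mice correlated best with their own number. With 1 mouse left out it was 0 to 2. The calls over all 13603 genes moved as well, from 2382 in the main fit to 1226 with replicates 1 to 4 only. They were 497 with replicates 5 to 7 only, 1231 by the one-way test with Tukey's post-test and 2315 without both high livers. With only the 2 groups compared they were 2156, and with array weights 2695. Between CR and MF, where none was called, H2-Ob gave a count of 1 with an intensity above 20 on all arrays, cyclic loess, array weights, the replicate block or both high livers left out, and 0 to 1 with 1 mouse left out. Between CR and INT the count was 1 with replicates 1 to 4 only and with only the 2 groups compared. Over any diet it was 1 with the replicate block and 0 to 1 with 1 mouse left out. The causes were not tested.

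Of 1962 values of single genes over 14 settings and 27 mice left out, 1879 kept direction and side of the threshold, 28 lost it, 18 gained it and 37 changed sign, 23 of these with 1 mouse left out. Sign changes were in small differences that were not called. With replicates 5 to 7 only, they were H2-Oa in CR minus MF (0.09) and CR minus INT (0.03), H2-DMa (0.21) and Cd74 (0.07) in CR minus INT, Ciita in INT minus MF (0.03) and H2-Ob in MF minus C (0.04, and 0.03 without both high livers). With replicates 1 to 4 only, they were H2-Ob in INT minus MF (0.13) and, in MF minus C, H2-Aa (0.02), H2-Ab1 (0.06), H2-DMa (0.23), Cd74 (0.05) and Ciita (0.19). Cyclic loess gave 0.02 for Cd74 in CR minus INT. With 1 mouse left out, the ranges were -0.13 to 0.08 for H2-DMa and -0.11 to 0.13 for Cd74 in CR minus INT, -0.14 to 0.04 for H2-Ob in INT minus MF, and in MF minus C -0.19 to 0.14 for H2-DMa, -0.18 to 0.02 for H2-Ob and -0.11 to 0.05 for Ciita. The median of the 8 genes moved to -0.06 with array weights in INT minus MF. Signal limits H2-Oa, which lay above the minimum on 7 of 27 arrays.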
